A study of Homo sapiens with 66 samples.

Results

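HILPDA and 9 other genes of the hypoxia response were followed by RNAseq through 22 groups of multiple myeloma (MM) cells treated with inhibitors of prolyl-tRNA synthetase. The other genes were VEGFA, ADM, ANKRD37, EGLN3, BNIP3, PDK1, NDRG1, PFKFB3 and PFKFB4, so that 10 of the 20167 genes in the count table are described. They were chosen by name, around HILPDA, because HILPDA was strongly lower with NCP26 after 6 h. The values of NCP26 against DMSO at 6 h are for that reason given as a description in both lines, with no test. Counts of members called in those comparisons are printed, but nothing is read from them.

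The 66 libraries were polyadenylated RNA from 2 established MM cell lines, each group in 3 replicates. AMO1 cells (AMO-1 WT in the labels) received DMSO, NCP26, NCP22, halofuginone (HFG), halofuginol or carfilzomib (CFZ), a proteasome inhibitor, for 6 h or 24 h. A carfilzomib-resistant subline of L363 (CFZr L363) received the same agents except CFZ. Every ProRS inhibitor was used at 1 µM, and the labels give no dose for CFZ. Halofuginol is HFG with its ketone reduced to an alcohol. Nothing in the labels says that replicates were separate cultures started on separate days, so the p-values measure the spread between these libraries. Storage before RNA extraction was not the same at both times (a night in the freezer at 6 h, ice at 24 h), so time and storage cannot be told apart.

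Totals ran from 1666325 to 6596543 counts per library, with a median of 3165566. All 8 plasma cell markers were above 1 CPM (the count scaled to a common library total) in the median library of either line, with summed levels of 2121 to 5362 CPM. The 7 markers of other cell types in the table summed to 0.77 to 12.4 CPM. Of those 7, the median was 0 for 3 in AMO1 and for 4 in CFZr L363. The labels name no culture at low oxygen. In bulk RNA, fewer cells expressing a gene and less of its RNA per cell cannot be told apart. The libraries fall into 3 sets (the sets of library numbers below), in each of which the numbers ending the count columns' headers run through once. Library numbers in the sample titles run on from the first set to the second and restart at the third. The labels do not explain the sets. AMO1 at 6 h and DMSO at 24 h are in the first, and the other AMO1 groups at 24 h (except 1 CFZ library) in the second. CFZr L363 is split between the second (DMSO, NCP26 and 2 libraries of NCP22 at 6 h) and the third. Comparisons across sets were refitted with the set as a term, for those between the lines with all 66 libraries in one fit, an alternative chosen after seeing the data. In AMO1 at 24 h the set coincides with treatment for DMSO, NCP26 and HFG, so the term rests on the CFZ group (1 library in the first set and 2 in the second, replicate 2 among them), and in CFZr L363 at 6 h it rests on the NCP22 group (2 libraries in the second set and 1 in the third). In the fit of all 66 libraries every other group lies within a single set, so the term rests there on these same CFZ and NCP22 libraries. Among the 66 libraries, 2 stood apart from their groups over 10159 genes. The standard deviation of the log2 ratio to the other 2 libraries of the group was 0.643 for DMSO 24 h replicate 2 of CFZr L363 and 0.559 for CFZ 24 h replicate 2 of AMO1, against a median of 0.232. Where NCP26, HFG or CFZ against DMSO rests on these libraries, counts of members and listed HIF targets are given with and without them. Replicate 1 of AMO1 with NCP26 at 6 h had 15581 genes detected, against 13577 and 13636 in its group. Its standard deviation on the same measure was 0.327.

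As background, cells sense oxygen through prolyl hydroxylases (EGLN1 to EGLN3), which mark the alpha subunits of hypoxia-inducible factor (HIF) for destruction by the VHL complex. When HIF alpha accumulates it pairs with ARNT and switches on genes for glycolysis, for angiogenesis and for saving oxygen in mitochondria. Many tumour cell lines keep part of this programme running in ordinary air. HILPDA is a small lipid droplet protein that inhibits the triglyceride lipase PNPLA2 (ATGL), so that fat is stored when oxygen is short. PFKFB3 and PFKFB4 set the level of fructose-2,6-bisphosphate, the main activator of glycolysis. PDK1 shuts pyruvate out of the mitochondrion, and BNIP3 is a receptor for mitophagy. ADM and VEGFA encode secreted vascular peptides and growth factors, EGLN3 is the oxygen sensor that HIF itself induces, NDRG1 is a stress and differentiation protein, and ANKRD37 is an ankyrin-repeat HIF target.

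In GRCh38 (GENCODE v44), HILPDA lies on the plus strand of chromosome 7 at 128455849 to 128458418, VEGFA on chromosome 6 at 43770184 to 43786487, ADM on chromosome 11 at 10305073 to 10307397 and ANKRD37 on chromosome 4 at 185396021 to 185400628, all on the plus strand. PDK1 lies on chromosome 2 at 172555373 to 172608669 and PFKFB3 on chromosome 10 at 6144934 to 6254644, again on the plus strand. EGLN3 (chromosome 14, 33924227 to 34462774), BNIP3 (chromosome 10, 131967684 to 131981967) and PFKFB4 (chromosome 3, 48517684 to 48562015) lie on the minus strand. The counts rest on 31-base words of the transcriptome, and words shared with other genes limit 3 members. Such words made up 38.2% of those of ANKRD37 (shared with UFSP2), 22.3% of BNIP3 (with its pseudogene BNIP3P1 among others) and 17% of HILPDA (with HILPDA-AS1 among others). The share was 5.63% for NDRG1 and lower for the remaining members.

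Promoter windows of 4 members are shown, as RefSeq gives them on GRCh38.p14 from 250 bases before to 50 bases after a start. The first window listed for each gene was used, and any other start was not searched. The windows of PFKFB4, ANKRD37 and EGLN3 lie wholly within the gene bounds given above. Capitals mark the HIF core letters ACGTG or GCGTG on either strand, so that a match on the opposite strand reads CACGT or CACGC, and CACGTG counts once on each strand. PFKFB4 (chr3:48556754-48557053, minus strand) and PFKFB3 (chr10:6144671-6144970, plus strand) had the highest correlations with HILPDA over both lines together, a description given below. ANKRD37 (chr4:185396591-185396890, plus strand) fell with HFG in both lines at 6 h, and BNIP3 (chr10:131981874-131982173, minus strand) did not pass the test with HFG at 6 h in AMO1.
PFKFB4: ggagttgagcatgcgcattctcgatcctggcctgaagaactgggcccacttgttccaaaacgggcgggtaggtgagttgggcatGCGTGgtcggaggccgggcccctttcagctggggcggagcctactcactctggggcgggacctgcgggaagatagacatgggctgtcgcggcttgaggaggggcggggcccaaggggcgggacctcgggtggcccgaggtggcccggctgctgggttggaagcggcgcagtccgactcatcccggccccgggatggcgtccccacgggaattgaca
PFKFB3: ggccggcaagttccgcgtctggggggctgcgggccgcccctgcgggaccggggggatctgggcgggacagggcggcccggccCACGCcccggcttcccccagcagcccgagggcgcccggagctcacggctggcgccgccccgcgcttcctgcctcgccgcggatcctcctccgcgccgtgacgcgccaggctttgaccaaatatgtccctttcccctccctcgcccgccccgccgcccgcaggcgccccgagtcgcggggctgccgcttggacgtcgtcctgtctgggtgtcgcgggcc
ANKRD37: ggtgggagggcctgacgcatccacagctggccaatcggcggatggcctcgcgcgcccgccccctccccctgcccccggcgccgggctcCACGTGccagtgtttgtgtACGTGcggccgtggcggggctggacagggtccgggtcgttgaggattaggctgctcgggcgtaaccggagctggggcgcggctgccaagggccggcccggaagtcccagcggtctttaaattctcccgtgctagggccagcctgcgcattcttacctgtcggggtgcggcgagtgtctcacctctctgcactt
BNIP3: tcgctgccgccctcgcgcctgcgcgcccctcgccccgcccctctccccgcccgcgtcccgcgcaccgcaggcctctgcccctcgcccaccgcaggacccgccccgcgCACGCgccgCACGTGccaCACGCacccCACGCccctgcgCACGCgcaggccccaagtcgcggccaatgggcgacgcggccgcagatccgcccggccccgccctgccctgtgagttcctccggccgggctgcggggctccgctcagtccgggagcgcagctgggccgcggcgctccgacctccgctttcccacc

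BNIP3 held 2 matches of ACGTG and 4 of GCGTG, ANKRD37 held 3 of ACGTG, and PFKFB3, PFKFB4 and ADM held 1 of GCGTG each. The single windows searched for EGLN3 and PDK1 held neither, which leaves other starts of these genes unsearched. GC content was 36.3% in the PDK1 window and 65% to 80.7% in the other windows. Of 34935 promoters of the same length, 48.4% held at least 1 of the cores (21.4% ACGTG and 36.5% GCGTG), so the letters are common. No window was at hand for HILPDA, VEGFA and NDRG1, so their promoters were not searched. No member with a window held the ATF4 letters TGATGNAAN, which 3.62% of all promoters held, and nothing is read from that absence.

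HILPDA had the widest range of the 9 members tested, relative to its level, from 4.69 CPM in an AMO1 library with NCP26 at 6 h to 279.8 CPM in a CFZr L363 library with halofuginol at 24 h. In AMO1 after 6 h, the DMSO libraries stood at 90.8, 87.1 and 84.6 CPM. The NCP26 libraries stood at 4.69, 9.56 and 6.82 CPM, from 12, 31 and 21 counts. The HFG libraries stood at 4.98, 4.801 and 6.10 CPM. HILPDA was thus lower in every library with either inhibitor than in any DMSO library, while the NCP26 and HFG values overlapped. Against DMSO, HILPDA stood 3.59 lower on the log2 scale with NCP26 (95% interval -3.97 to -3.22), a description. With HFG it fell by 3.96 (SE 0.135, adjusted p = 2.7e-12, edgeR), 15.5-fold. The same DMSO libraries serve both comparisons and entered the choice of the members, whereas the contrast of HFG with halofuginol uses neither them nor the NCP26 libraries: HILPDA was 15.9-fold lower with HFG at 6 h (log2 fold change -3.99, SE 0.131, adjusted p = 1.57e-13).

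**Figure D1:**
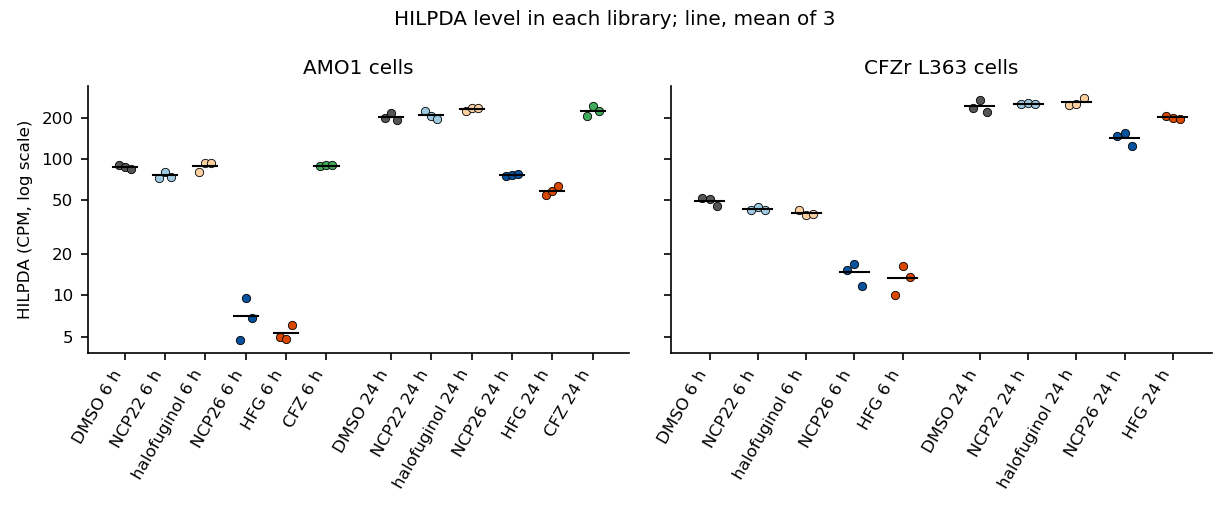
HILPDA level in CPM (log axis) in each of the 66 libraries, by treatment and time, AMO1 left and CFZr L363 right; points are libraries and lines are means of 3. The NCP26 and HFG libraries lie lowest at 6 h in both lines, and within each line and treatment the 24 h libraries lie above the 6 h libraries.

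The fall of HILPDA in CFZr L363 at 6 h was smaller. Its DMSO libraries held 51.6, 51.1 and 45.1 CPM. Those with NCP26 held 15.4, 17.1 and 11.7 CPM, and those with HFG 10.1, 16.5 and 13.7 CPM. Treated and DMSO libraries did not overlap. NCP26 stood 1.72 lower on the log2 scale (95% interval -2.06 to -1.37, a description), and HFG fell by 1.86 (SE 0.143, adjusted p = 1.9e-10, edgeR). The difference between the lines in the HFG effect was itself 2.10 (SE 0.225, adjusted p = 7.61e-07), with the larger fall in AMO1.

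HILPDA rose in the DMSO control between 6 h and 24 h. In AMO1 it reached 201, 217 and 195 CPM, 2.34-fold above 6 h (log2 fold change 1.23, SE 0.0783, adjusted p = 3.72e-11, edgeR). In CFZr L363 it reached 239, 271 and 222 CPM, 4.96-fold above 6 h (log2 fold change 2.31, SE 0.146, adjusted p = 0.00125). Of the 9 members tested, 6 rose between these times in each line, beside 46.5% of all genes tested called in either direction in AMO1 and 14.8% in CFZr L363. These were HILPDA, PFKFB4, PFKFB3, NDRG1, PDK1 and VEGFA in both lines. PFKFB4, the kinase-phosphatase of the same family as PFKFB3, rose 2.65-fold in AMO1 and 3.84-fold in CFZr L363. ADM, ANKRD37 and BNIP3 did not pass the test in either line, with log2 differences of -0.16 to 0.36 in AMO1 and -0.36 to 0.79 in CFZr L363. Leaving out DMSO 24 h replicate 2 of CFZr L363 raised the number called in either direction there to 9 of 9, and leaving out any 1 of its 6 h DMSO libraries lowered it to 2. The shares of all genes called in those refits are not given, so nothing is read from these counts about the members.

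At 24 h in AMO1, HILPDA remained lower with both inhibitors while standing well above its level at 6 h. With NCP26 the libraries held 75.3, 76.2 and 78.2 CPM and with HFG 54.5, 57.9 and 63.9 CPM, all below the DMSO libraries and not overlapping each other. The fall was 1.42 on the log2 scale with NCP26 (SE 0.0674, adjusted p = 1.23e-17) and 1.79 with HFG (SE 0.0766, adjusted p = 6.61e-13, edgeR). NCP26 and HFG also differed from each other, by 0.36 (SE 0.0878, adjusted p = 0.0029). The HFG effect shrank by 2.20 on the log2 scale from 6 h to 24 h in AMO1 (SE 0.156, adjusted p = 4.27e-09) and by 1.61 in CFZr L363 (SE 0.2, adjusted p = 0.00248).

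In CFZr L363 at 24 h the differences were small. The NCP26 libraries held 148, 155 and 125 CPM of HILPDA against 222 to 271 CPM in DMSO, a fall of 0.76 on the log2 scale (SE 0.144, adjusted p = 0.0221, edgeR). This call was lost when any library of the comparison other than DMSO replicate 2 was left out (adjusted p up to 0.131), and was kept without DMSO replicate 2 (-0.68, adjusted p = 0.000228). The HFG libraries held 207, 201 and 198 CPM, and the difference of -0.27 (95% interval -0.55 to 0.011) did not pass (adjusted p = 0.317), although it did without DMSO replicate 2 (-0.18, adjusted p = 0.0203). NCP26 was lower than HFG by a log2 difference of -0.49 (SE 0.0789, adjusted p = 0.00151), the opposite order to AMO1. The HFG effect on HILPDA differed between the lines by 1.51 at 24 h (SE 0.145, adjusted p = 3.96e-05).

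Ordered by mean level, the 22 groups ran from CFZr L363 with halofuginol at 24 h (261 ± 16.7 CPM, SD, n = 3) down to AMO1 with HFG at 6 h (5.29 ± 0.702 CPM). The 8 highest groups, all of 24 h, overlapped in range from each to the next: the DMSO, NCP22 and halofuginol groups of both lines, CFZ in AMO1 and HFG in CFZr L363 (202 ± 5.04 CPM). CFZr L363 with NCP26 at 24 h followed alone (143 ± 15.3 CPM). CFZ, halofuginol and DMSO of AMO1 at 6 h overlapped at 87.5 to 89.6 CPM, and NCP26 of AMO1 at 24 h (76.6 ± 1.48 CPM) overlapped NCP22 of AMO1 at 6 h (76.1 ± 4.21 CPM). AMO1 with HFG at 24 h (58.8 ± 4.75 CPM) and CFZr L363 with DMSO at 6 h (49.2 ± 3.63 CPM) stood apart from their neighbours. NCP22 and halofuginol of CFZr L363 at 6 h overlapped at 43.1 and 40.3 CPM. The 4 lowest groups were NCP26 and HFG at 6 h, at 14.7 and 13.4 CPM in CFZr L363 and 7.02 and 5.29 CPM in AMO1, each pair overlapping.

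Over both lines together, PFKFB3 and PFKFB4 had the patterns most like HILPDA. Across the 22 group means of log2 CPM, centred within each line, the Pearson correlation with HILPDA was 0.972 for PFKFB3 and 0.970 for PFKFB4, ranks 1 and 2 of 10024 genes with a mean of at least 5 CPM. PGRMC2 (0.957), SLC2A1, the glucose transporter GLUT1 (0.956), and WDR59 (0.951) came next. The ranges differed widely: in AMO1 WDR59 moved from 29.6 to 44.1 CPM and SLC2A1 from 10.9 to 80.9 CPM between group means. Of these 5 genes, PFKFB3, PGRMC2 and WDR59 stayed within the 5 closest in AMO1 alone, and PFKFB3 and PFKFB4 in CFZr L363 alone. The other members ranked lower, from PDK1 (0.904) and NDRG1 (0.882) through ANKRD37 (0.799), BNIP3 (0.658) and ADM (0.517) to VEGFA (0.37). In AMO1 alone PGRMC2 ranked 1, PFKFB3 5 and PFKFB4 13. The groups share DMSO libraries, times and scaling, and they include both NCP26 groups at 6 h, which served to choose HILPDA. The correlations are a description.

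At 6 h in AMO1, 8 of the 9 members tested differed with HFG, 7 lower and 1 higher, beside 54.3% of all genes called. The members' median log2 fold change was -1.98, beside 0.013 over all genes tested. PFKFB4 held 112, 102 and 107 CPM in DMSO and 15.7, 18.9 and 17.8 CPM with HFG, a 5.89-fold fall (log2 fold change -2.56, SE 0.104, adjusted p = 2.51e-11, edgeR). PFKFB3 went from 108, 119 and 117 CPM to 29.1, 28 and 24.1 CPM, 4.2-fold lower. Both enzymes of fructose-2,6-bisphosphate thus stood apart from DMSO in every library. ANKRD37 went from 169, 164 and 156 CPM to 24.9, 27.7 and 24.6 CPM, 6.18-fold lower (log2 fold change -2.63, SE 0.0922). NDRG1 went from 140.0, 133 and 148 CPM to 27.2, 39.5 and 35.3 CPM, 3.95-fold lower. PDK1, the kinase that inactivates pyruvate dehydrogenase, fell 2.11-fold and ADM, the precursor of adrenomedullin, 1.85-fold. VEGFA went the other way, from 159, 174 and 164 CPM to 218, 238 and 233 CPM, a rise of 0.51 on the log2 scale (SE 0.0746, adjusted p = 3.24e-05). BNIP3 stood at 13.5 to 16.3 CPM in DMSO and 12.5 to 16.3 CPM with HFG, with a difference of -0.02 (95% interval -0.40 to 0.36, adjusted p = 0.925).

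With NCP26 at 6 h in AMO1, the comparison that chose HILPDA, the other members stood at PFKFB4 -2.94, PFKFB3 -2.26, ANKRD37 -2.20, NDRG1 -2.02, PDK1 -0.99, ADM -0.93, BNIP3 -0.13 and VEGFA 0.34 on the log2 scale. In that comparison 8 of 9 members were called beside 37.3% of all genes, from which nothing is read. In CFZr L363 the same description gave PFKFB4 -1.58, PFKFB3 -1.24, ADM -1.03, ANKRD37 -0.54, NDRG1 -0.29, BNIP3 -0.22, PDK1 0.01 and VEGFA 0.48. There 6 of 9 members were called beside 18.8% of all genes. Nothing is read from that count either, because NCP26 at 6 h served to choose the members.

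**Figure D2:**
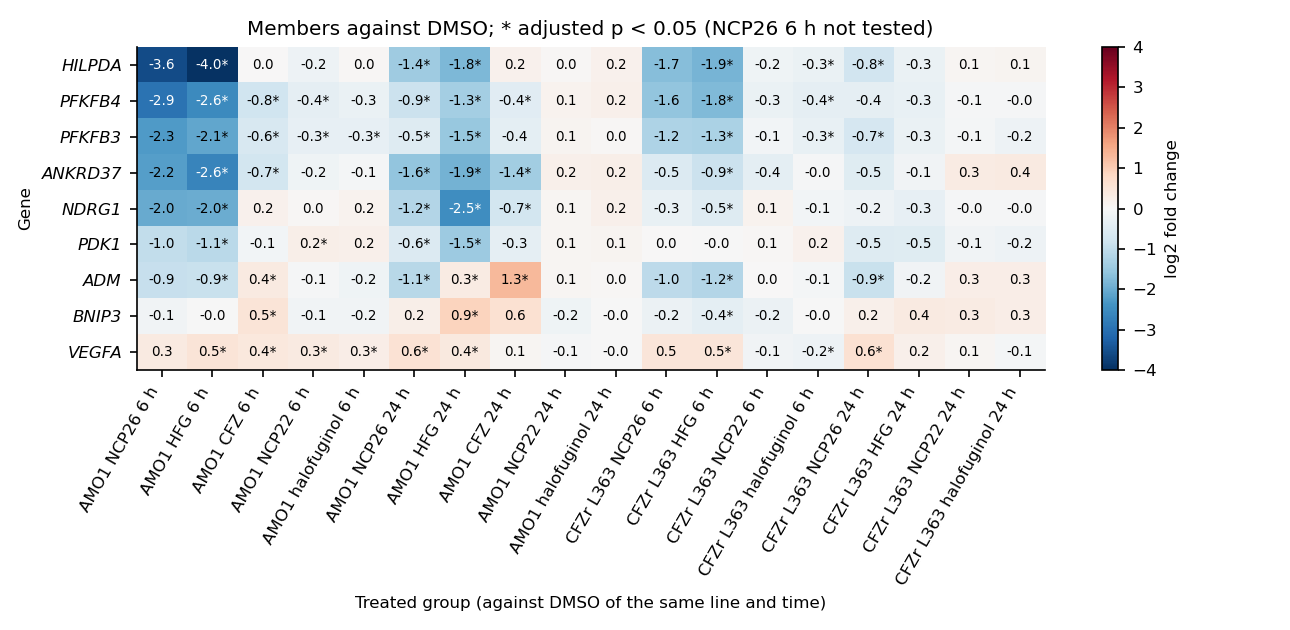
log2 fold change of each of the 9 members tested (rows) against DMSO of the same line and time in 18 treated groups (columns); blue is lower, red is higher, and asterisks mark an adjusted p under 0.05 outside the untested NCP26 6 h columns. Within each line, HILPDA, PFKFB4 and PFKFB3 have their lowest values with NCP26 and HFG at 6 h, ANKRD37, NDRG1 and PDK1 fall further with HFG in AMO1 than in CFZr L363, and VEGFA is above 0 with NCP26 and HFG, without passing the test with HFG at 24 h in CFZr L363. In AMO1 at 6 h, VEGFA is also above 0 with NCP22, halofuginol and CFZ.

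In CFZr L363 at 6 h, HFG changed 8 of 9 members, 7 lower and 1 higher, beside 54.5% of all genes. PFKFB4 held 95.0, 78.3 and 82.8 CPM in DMSO and 20, 26.7 and 26.7 CPM with HFG (log2 fold change -1.78, SE 0.115, adjusted p = 8.77e-12, edgeR). PFKFB3 fell by 1.27 on the log2 scale and ADM by 1.16, from 431 to 470 CPM down to 195 to 200 CPM. ANKRD37 fell by 0.85, NDRG1 by 0.52 and BNIP3 by 0.39. BNIP3 lost its call with the set of library numbers as a term (-0.01, adjusted p = 0.981) and with 1 of the 6 libraries left out (adjusted p = 0.0529). The correlation of log2 fold changes with transcript GC content across genes was -0.568 in this comparison, and with an offset for GC content NDRG1 stood at -0.26 (adjusted p = 0.0347, edgeR) and BNIP3 at -0.65. VEGFA rose by 0.48, from 238 to 258 CPM up to 332 to 357 CPM. PDK1 held 124, 141 and 120.0 CPM in DMSO and 113, 131 and 127 CPM with HFG, with a difference of -0.02 (95% interval -0.18 to 0.14).

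The HFG effect at 6 h was tested between the lines. For 6 of 9 members it was smaller in CFZr L363, beside 20.7% of all genes differing in either direction. Besides HILPDA these were ANKRD37, by 1.79 on the log2 scale (SE 0.127, adjusted p = 1.28e-09), NDRG1 by 1.47, PDK1 by 1.06, PFKFB3 by 0.80 and PFKFB4 by 0.79. With the set as a term PFKFB4 did not pass (0.72, adjusted p = 0.0743, edgeR) and HILPDA stood at 2.155. ADM (-0.27), BNIP3 (-0.36) and VEGFA (-0.03, 95% interval -0.22 to 0.16) did not pass. At 24 h the same 6 members differed between the lines, beside 16.9% of all genes, with NDRG1 at 2.15 (SE 0.134, adjusted p = 2.06e-06) and ANKRD37 at 1.75. For NCP26 at 24 h, HILPDA (0.64, SE 0.148, adjusted p = 0.027) and NDRG1 (0.97) were the 2 of 9 members that differed, beside 5.41% of all genes. The HILPDA call there was lost with 9 of the 12 libraries left out singly (adjusted p up to 0.0817).

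The starting levels also differed between the lines. In DMSO at 6 h all 9 members tested differed, beside 60.2% of all genes. ADM was 3.74-fold and BNIP3 2.44-fold higher in CFZr L363, and VEGFA was 1.49-fold higher. NDRG1 was 2.69-fold, PFKFB3 2.08-fold, PDK1 1.97-fold, ANKRD37 1.92-fold, HILPDA 1.82-fold and PFKFB4 1.27-fold lower there. With the set as a term VEGFA (adjusted p = 0.0589) and ANKRD37 (adjusted p = 0.0978, edgeR) did not pass at 6 h. At 24 h, 5 of 9 members differed, beside 39.9% of all genes: ADM, BNIP3 and VEGFA were higher in CFZr L363 and NDRG1 and PDK1 lower. The calls of VEGFA and PDK1 were each lost with 5 of 6 libraries left out singly (adjusted p up to 0.192 and 0.125, edgeR). With the set as a term VEGFA did not pass (0.11, adjusted p = 0.773, edgeR). HILPDA did not pass (log2 difference 0.26, 95% interval -0.04 to 0.56), although it did without DMSO replicate 2 of CFZr L363 (0.16). Per kilobase of the canonical transcript, the highest median level over the 6 DMSO libraries was that of ANKRD37 in AMO1 (211.6 CPM per kb) and of ADM in CFZr L363 (278 CPM per kb), with HILPDA at 105 and 100.1 CPM per kb. EGLN3 was at or near 0: 40 of 66 libraries held 0 counts and the highest held 4 (1.56 CPM). A count of 0 allows up to 3 counts, or 0.469 to 1.69 CPM depending on the library, and EGLN3 passed the filter on low counts in no comparison.

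At 24 h in AMO1, NCP26 changed 8 of 9 members, beside 60.7% of all genes, and HFG changed 9 of 9, beside 59%. The members parted from one another and between the inhibitors. NDRG1 held 322, 348 and 315 CPM in DMSO, 164, 143 and 127 CPM with NCP26 and 59.0, 56.2 and 60.9 CPM with HFG. Its fall was 1.18 with NCP26 (SE 0.065, adjusted p = 5.02e-16) and 2.48 with HFG (SE 0.0701, adjusted p = 2.01e-15, edgeR) on the log2 scale. PDK1 held 394 to 435 CPM in DMSO, 274 to 288 CPM with NCP26 and 148 to 155 CPM with HFG. For both genes the 3 groups did not overlap. PFKFB3 fell 1.43-fold with NCP26 and 2.84-fold with HFG, and PFKFB4 1.82-fold and 2.55-fold. ANKRD37 fell by 1.57 with NCP26 and by 1.90 with HFG. With the set of library numbers as a term, the change of PFKFB3 with NCP26 no longer passed (-0.57, adjusted p = 0.0517), nor did those of VEGFA (0.38 and 0.18, adjusted p = 0.247 and 0.592), and PDK1 with NCP26 moved from -0.56 to -0.85. Those values rest on the 3 CFZ libraries named above. NCP22 and halofuginol at 24 h are in the same set as NCP26 and HFG. With libraries left out singly, NCP26 against NCP22 gave VEGFA 0.61 to 0.71 and PFKFB3 -0.65 to -0.58 on the log2 scale (adjusted p up to 0.000244, edgeR). HFG against halofuginol gave VEGFA 0.36 to 0.46 (adjusted p up to 0.000577, edgeR). An effect of the set apart from treatment was not tested.

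ADM separated NCP26 from HFG most. It held 110, 105 and 105 CPM in DMSO at 24 h, 47.8, 49.5 and 51.8 CPM with NCP26 and 122, 147 and 127 CPM with HFG. It fell by 1.09 with NCP26 (SE 0.0799, adjusted p = 4.76e-13) and rose by 0.32 with HFG (SE 0.0758, adjusted p = 0.00153, edgeR). With the set as a term the values were -0.73 and 0.68 (adjusted p = 0.0142 and 0.0124). Within the second set, with libraries left out singly, ADM stood at -1.23 to -1.12 for NCP26 against NCP22. For HFG against halofuginol it stood at 0.15 to 0.35, and that call was lost with 2 of 6 libraries (adjusted p up to 0.189, edgeR). The HFG effect on ADM differed between 6 h and 24 h by 1.23 (SE 0.125, adjusted p = 2.87e-07). BNIP3 rose 1.86-fold with HFG, from 17.95 to 20.2 CPM up to 28.7 to 42.7 CPM (adjusted p = 5.58e-05), and with NCP26 stood at 20.5 to 23.9 CPM (log2 difference 0.23, adjusted p = 0.17). VEGFA rose with both, 1.5-fold with NCP26 and 1.31-fold with HFG.

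**Figure D3:**
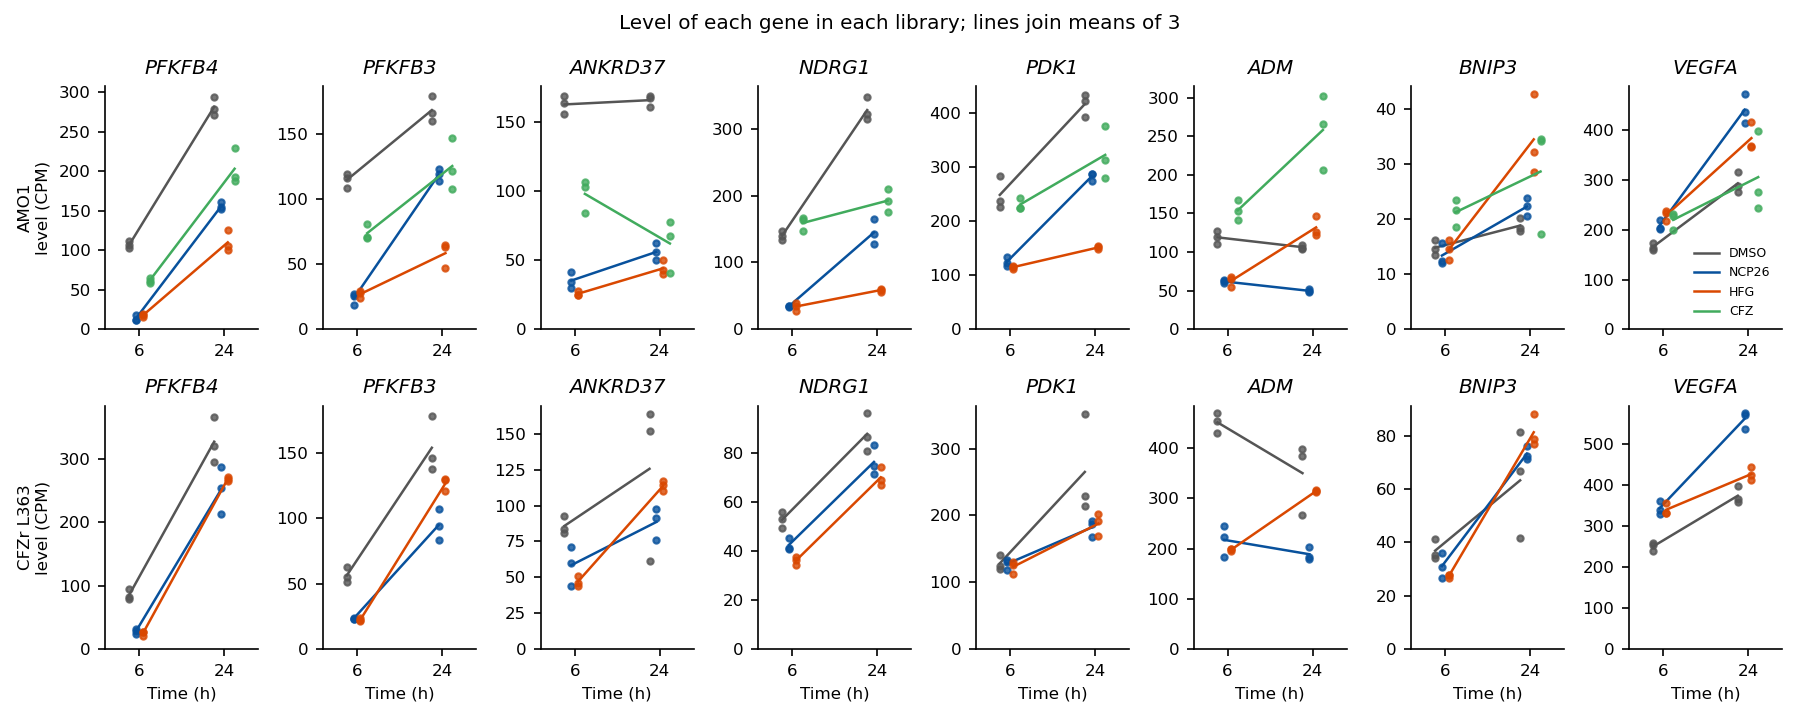
Level in CPM (linear axes from 0) of 8 members at 6 h and 24 h in AMO1 (top) and CFZr L363 (bottom), for DMSO, NCP26, HFG and, in AMO1, CFZ; points are libraries and lines join means of 3. NDRG1 and PDK1 with HFG stay low at 24 h in AMO1, ADM with HFG rises above DMSO there, and the distance between HFG and DMSO is small for most members in CFZr L363 at 24 h, where none passed the test by edgeR.

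In CFZr L363 at 24 h, NCP26 changed 4 of 9 members, beside 7.09% of all genes: HILPDA, ADM (log2 fold change -0.88, SE 0.18, adjusted p = 0.0294) and PFKFB3 (-0.69, SE 0.157, adjusted p = 0.0422) fell and VEGFA rose (0.60, SE 0.129, adjusted p = 0.0345, edgeR). VEGFA held 577, 572 and 538 CPM with NCP26 against 359 to 399 CPM in DMSO. As for HILPDA, the calls of ADM, PFKFB3 and VEGFA were each lost with 5 of the 6 libraries left out singly (adjusted p up to 0.168, 0.205 and 0.193), and kept without DMSO replicate 2. HFG changed 0 of 9 members by edgeR, beside 1.17% of all genes, with 2 of 9 at an unadjusted p under 0.05 and 0 by DESeq2. On simulated counts for that comparison, 50.3% of 2-fold changes were recovered. DMSO replicate 2 held 61.1 CPM of ANKRD37 against 152 and 164 CPM in its group, 352 CPM of PDK1 against 214 and 229 CPM, and 41.7 CPM of BNIP3 against 81.2 and 66.7 CPM. Without it, 6 of 9 members were called with NCP26 and 7 of 9 with HFG, beside 28.6% and 19.5% of all genes. ANKRD37 then fell by 0.82 with NCP26 (adjusted p = 9.52e-05) and by 0.47 with HFG (adjusted p = 1.13e-05), and VEGFA rose by 0.24 with HFG. The HFG effect changed between 6 h and 24 h in CFZr L363 for 4 of 9 members (HILPDA, ADM, PFKFB3 and PFKFB4), beside 12.3% of all genes, and in AMO1 for 8 of 9, beside 39.6%.

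Compounds at 1 µM were compared in 8 pairs. HFG was set against halofuginol at both times in each line, and these compounds differ in the ketone and alcohol named above. In AMO1, HFG and halofuginol differed in 8 of 9 members at 6 h (51.7% of all genes) and in 9 of 9 at 24 h (56.6%). In CFZr L363 they differed in 9 of 9 at 6 h (47.3%) and in 7 of 9 at 24 h (21.9%). HILPDA was lower with HFG in each, by log2 differences of -3.99, -1.96, -1.60 and -0.37 in that order, and the last had an SE of 0.0642 and an adjusted p of 0.000612. BNIP3 was the member that did not pass in AMO1 at 6 h (0.13, 95% interval -0.27 to 0.52). At 24 h in CFZr L363 it was BNIP3 and PFKFB3 (-0.08, 95% interval -0.23 to 0.06).

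NCP26 and NCP22, the compound from which NCP26 was developed, differed at 24 h in 9 of 9 members in AMO1 (52% of all genes) and in 7 of 9 in CFZr L363 (34.1%). The log2 difference of HILPDA was -1.44 in AMO1 (SE 0.0778, adjusted p = 5.72e-09) and -0.83 in CFZr L363 (SE 0.0887, adjusted p = 7.52e-06), lower with NCP26 in both. The BNIP3 call in AMO1 (0.43, adjusted p = 0.0454, edgeR) was lost with any of the 6 libraries left out (adjusted p = 0.0516 to 0.186), and that of PFKFB4 in CFZr L363 (-0.32, adjusted p = 0.0224) with 4 of 6. NCP26 and HFG at 24 h differed in 9 of 9 members in AMO1 (44.9%) and in 5 of 9 in CFZr L363 (12.9%). In AMO1 the largest of these differences were ADM (-1.42, SE 0.0862), NDRG1 (1.29, SE 0.0931) and PFKFB3 (0.98, SE 0.0925), where a negative value means lower with NCP26. Benjamini-Hochberg adjustment ran over all genes within each pair, not over the 8 pairs.

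NCP22 and halofuginol changed between 0 and 4 of 9 members against DMSO. In AMO1 at 6 h, 4 of 9 passed with NCP22, beside 13.5% of all genes: VEGFA (0.35) and PDK1 (0.25) rose and PFKFB4 (-0.37) and PFKFB3 (-0.33) fell. With halofuginol 2 of 9 passed, beside 3.62%: VEGFA (0.26) and PFKFB3 (-0.31). The calls of PDK1 with NCP22 and of VEGFA with halofuginol were lost with 5 of 6 libraries left out singly, and those of PFKFB3 with 3 and 4 of 6. The correlation of log2 fold changes with transcript GC content across genes was -0.51 and -0.469 in these comparisons, and 1 of 9 members passed in each with an offset for GC content. HILPDA held 73.2 to 80.9 CPM with NCP22 (log2 difference -0.19, 95% interval -0.37 to -0.01, adjusted p = 0.15) and 80.9 to 93.0 CPM with halofuginol (0.03, 95% interval -0.14 to 0.21). At 24 h in AMO1, NCP22 changed 0 of 9 by edgeR (0% of all genes, 2 of 9 at an unadjusted p under 0.05, 0 by DESeq2) and halofuginol 0 of 9 (0.183%, 4 of 9 unadjusted, 1 by DESeq2). HILPDA differences there were 0.04 (95% interval -0.12 to 0.20) and 0.19 (95% interval 0.06 to 0.32).

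In CFZr L363, halofuginol at 6 h changed 4 of 9 members, all lower, beside 25.8% of all genes: PFKFB4 (-0.37), PFKFB3 (-0.28), HILPDA (-0.27, adjusted p = 0.0491) and VEGFA (-0.19). With libraries left out singly these calls were lost with 2, 4, 5 and 2 of 6. There the correlation with GC content was -0.717, and 0 of 9 passed with the GC offset. NCP22 at 6 h changed 0 of 9 by edgeR, beside 0% of all genes, with 2 of 9 at an unadjusted p under 0.05 and 0 by DESeq2. At 24 h NCP22 and halofuginol each changed 0 of 9 by edgeR, beside 0% of all genes, with 0 of 9 unadjusted and 0 by DESeq2.

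CFZ split the members in AMO1. At 6 h, 6 of 9 passed, beside 26.9% of all genes. ADM rose (141, 153 and 168 CPM against 111 to 127 CPM in DMSO, log2 fold change 0.37, SE 0.0844), as did BNIP3 (0.51) and VEGFA (0.41). BNIP3 lost its call with 4 of the 6 libraries left out singly (adjusted p up to 0.131), and 5 members passed by DESeq2. PFKFB4 (-0.80), ANKRD37 (-0.74) and PFKFB3 (-0.64) fell. HILPDA held 88.9, 89.9 and 90.1 CPM, a difference of 0.03 (95% interval -0.14 to 0.20). At 24 h, 4 of 9 passed, beside 27% of all genes. ADM rose 2.46-fold to 302, 207 and 265 CPM (adjusted p = 0.000494, edgeR), ANKRD37 fell 2.64-fold (adjusted p = 0.00172), NDRG1 fell 1.68-fold and PFKFB4 1.37-fold. The PFKFB4 call was lost with 5 of the 6 libraries left out singly (adjusted p up to 0.12, edgeR) and kept without CFZ replicate 2. HILPDA held 208, 244 and 225 CPM and did not pass (0.16, 95% interval -0.09 to 0.42). Without CFZ replicate 2, 8 of 9 members passed, beside 48.2% of all genes, with HILPDA the exception.

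Other genes of the pathway were counted from lists for HIF regulators, for HIF targets in glycolysis, for other HIF targets and for triglyceride turnover. In AMO1 with HFG at 6 h, 18 of 19 glycolysis genes fell and 0 rose, beside 26.6% of all genes called lower, with a median log2 fold change of -0.95. With NCP22 at 6 h, 12 of 19 fell and 0 rose (median -0.19, beside 13.5% of all genes called in either direction). With halofuginol 2 of 19 fell and 0 rose (median -0.09, beside 3.62%). Log2 fold changes over all genes correlated with transcript GC content at -0.32 for HFG, -0.51 for NCP22 and -0.469 for halofuginol. The lists were not refitted with a GC offset. The largest falls with HFG were those of SLC2A1 (-2.58, SE 0.147), the hexokinase HK2 (-2.32, SE 0.0896) and PGK1, phosphoglycerate kinase (-1.74, SE 0.0492), the last from 2426 ± 48.6 to 708 ± 11.9 CPM (SD, n = 3). Of 31 other HIF targets tested, 23 fell and 5 rose. FUT11 (-2.33), AK4 (-2.16) and the histone demethylase KDM3A (-1.38) fell most, and STC2 (2.41), VLDLR (1.69) and BHLHE41 (0.92) rose most. Of 9 HIF regulators tested, CUL2 (0.69), HIF1A (0.38, SE 0.109, adjusted p = 0.00813) and VHL (0.32) rose and ELOB (-0.93) and EGLN1 (-0.62) fell. These were 5 of 9, beside 54.3% of all genes called in either direction. Among 8 genes of triglyceride turnover only PLIN3 passed (-0.33). The regulators were thus called at near the share of all genes and went both ways, and any link to the targets was not tested.

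**Figure D4:**
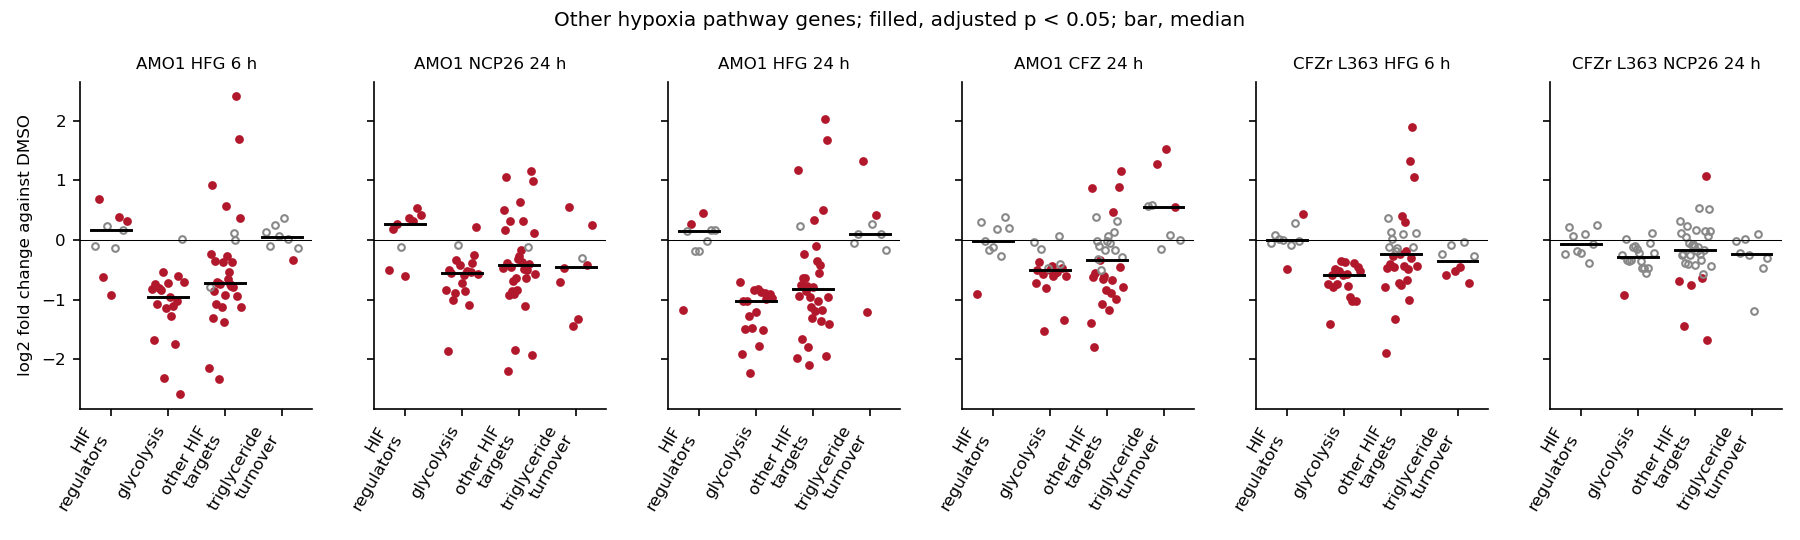
log2 fold change against DMSO of the genes of 4 lists in 6 comparisons; each point is a gene, filled where the adjusted p was under 0.05, and bars are list medians. The glycolysis points lie below 0 with few exceptions in AMO1 and with HFG at 6 h in CFZr L363, whereas the other HIF targets spread in both directions.

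At 24 h in AMO1, 17 of 19 glycolysis genes fell and 1 rose with NCP26 (30.9% of all genes lower, list median -0.56), and 19 of 19 fell with HFG (30.5%, median -1.02). With NCP26 ALDOC (-1.87), PGK1 (-1.09) and GAPDH (-1.01) fell most, and SLC2A3 rose (0.22). With HFG it was HK1 (-2.24), ALDOC (-1.92) and PFKP (-1.79). Of 32 other HIF targets, 22 fell and 9 rose with NCP26, and 26 fell and 5 rose with HFG. TFRC, the transferrin receptor, fell by 1.94 and 1.95, the glycogen branching enzyme GBE1 by 1.85 and 2.10, CA9 by 2.20 with NCP26 and AK4 by 1.98 with HFG. STC2 rose by 1.17 and 2.04 and VLDLR by 1.00 and 1.69, BHLHE41 by 1.06 with NCP26 and ANGPTL4 by 1.17 with HFG. CA9 was near the floor, at 1.07 ± 0.832 CPM with NCP26 against 4.81 ± 0.675 CPM in DMSO, and its change had an SE of 0.445. ARNT, the partner of HIF alpha, fell by 0.50 with NCP26 and by 1.17 with HFG (SE 0.0582), from 509 ± 34.01 to 226 ± 9.63 CPM. Of the 9 regulators, 6 rose and 2 fell with NCP26, among them HIF1AN (0.53), VHL (0.42), ELOC (0.37) and ELOB (-0.60), and 2 rose (ELOC, 0.45, and EGLN1, 0.28) and 1 fell with HFG. Of all genes, 60.7% were called in either direction with NCP26 and 59% with HFG. The AMO1 DMSO libraries at 24 h are in another set than NCP26 and HFG, and the lists were not refitted with the set. Within the second set, NCP26 against NCP22 had 17 of 19 glycolysis genes lower and 1 higher (52% of all genes called). Of 9 regulators, 4 were higher and 3 lower there. HFG against halofuginol had 19 of 19 glycolysis genes lower, and 2 regulators higher and 2 lower (56.6%).

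The triglyceride genes changed in both directions at 24 h in AMO1. With NCP26, 5 of 8 fell and 2 rose by edgeR, beside 60.7% of all genes called in either direction, and 3 of 8 were called by DESeq2. Among those that fell were LIPE (-1.45), MGLL (-1.33) and ABHD5 (-0.71), and those that rose were DGAT2 (0.55) and PNPLA2 (0.25), the lipase that HILPDA inhibits. MGLL was low, at 1.68 ± 0.544 CPM with NCP26 against 4.21 ± 0.669 CPM in DMSO, as was ABHD5 (4.22 ± 2.00 against 6.92 ± 1.10 CPM). With HFG, beside 59% of all genes called, DGAT2 (1.32) and PLIN2 (0.42) rose and LIPE fell (-1.21). Within the second set, 4 of 8 triglyceride genes were lower and 1 higher for NCP26 against NCP22, beside 52% of all genes called. For HFG against halofuginol 1 was lower and 1 higher, beside 56.6%. With CFZ at 24 h, 14 of 19 glycolysis genes fell and 0 rose (14% of all genes lower), led by HK1 (-1.52), SLC2A3 (-1.35) and HK2 (-0.81). Of 32 other targets 15 fell and 4 rose with CFZ, led by BHLHE41 (-1.80), AK4 (-1.40) and KDM5B (-1.18) and by VLDLR (1.16), STC2 (0.89) and ANGPTL4 (0.87). Without CFZ replicate 2, 15 of 19 glycolysis genes fell and 0 rose. Of the 32 other targets, 20 then fell and 5 rose, beside 48.2% of all genes called in either direction. ARNT fell by 0.91 with CFZ, and MGLL (1.53), DGAT2 (1.27) and PLIN3 (0.55) rose.

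In CFZr L363 with HFG at 6 h, 18 of 18 glycolysis genes tested fell (27.5% of all genes lower, list median -0.58), as did 17 of 31 other HIF targets while 5 rose. Of 9 regulators 1 rose and 1 fell, and 4 of 8 triglyceride genes fell, beside 54.5% of all genes called in either direction. These HFG libraries are in another set than their DMSO libraries, and the lists were not refitted with the set or a GC offset. Halofuginol, in the same set as HFG, had 9 of 18 glycolysis genes lower against that DMSO (median -0.15, beside 25.8%). Against halofuginol, HFG had 17 of 18 lower and 0 higher (median -0.43, beside 47.3%). At 24 h with NCP26, 1 of 18 glycolysis genes fell (4.38% of all genes lower), ALDOC by 0.92, and of 33 other targets 5 fell, led by TFRC (-1.68), CA9 (-1.44) and GBE1 (-0.76), and STC2 rose (1.08). CA9 was low here too, at 3.11 ± 1.31 CPM with NCP26 against 8.585 ± 1.66 CPM in DMSO. With HFG at 24 h, 0 of 18 glycolysis genes passed by edgeR, with 0 at an unadjusted p under 0.05 and 0 by DESeq2, and of 33 other targets TFRC alone passed (-1.03), beside 0.573% of all genes lower. Without DMSO replicate 2, 13 of 18 glycolysis genes fell with NCP26 and 9 of 18 with HFG. Of the 33 other targets, 13 then fell and 3 rose with NCP26, and 8 fell and 1 rose with HFG. The shares of all genes called in either direction were then 28.6% and 19.5%. For comparison, of 8 genes of the integrated stress response, which uncharged tRNA sets off through the kinase GCN2, 7 rose and 0 fell with HFG at 6 h in AMO1, led by ATF3 (3.66), DDIT3 (1.79) and TRIB3 (1.12). The list median was 0.77 there, beside 54.3% of all genes called in either direction. With HFG at 6 h in CFZr L363, 8 of 8 rose (median 2.62, beside 54.5%). With CFZ in AMO1, 8 of 8 rose at 6 h (median 1.32, beside 26.9%). At 24 h with CFZ, 1 rose and 2 fell (median -0.11, beside 27%).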

How the data were processed

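RNA was taken from AMO1 and CFZr L363 cells (66 libraries, 22 groups of 3 by the labels). The authors deposited gene-level counts, all whole numbers, which they made with kallisto (31-base words) from polyadenylated, directional libraries. The labels' processing notes name hg19 and the study's methods a GRCh38 transcriptome; which kallisto version and annotation they used is not given in the sources used here. Of 20167 Ensembl IDs, 19299 (95.7%) matched GENCODE v44 symbols. Counts were tested with edgeR 4.0.16 (R 4.3.3) by the quasi-likelihood test in 35 comparisons, each fitted on its own groups, with filterByExpr (minimum count 10, minimum total 15), TMM factors and Benjamini-Hochberg adjustment over all genes tested, at 0.05. The SE is the absolute log2 fold change over the square root of F. CPM used TMM factors over all libraries. The script was tested on simulated data with 2-fold changes in 200 genes. It recovered 90% for HFG at 6 h in AMO1, 50.3% for HFG at 24 h in CFZr L363 and 78% for the HFG effect over time in AMO1. False calls made up 3.23%, 6.54% and 7.14% of the calls in that order. Counts of 0 with HFG at 24 h in CFZr L363 can thus miss changes of that size. Named pathway genes were up to 3 called genes of the largest change in each direction, list and comparison. Members and lists were chosen with earlier results of these data known. Alternatives were DESeq2 1.42.0, its size factors, no filter, all groups in one fit, a GC offset, the set of library numbers (for comparisons between lines over all libraries, added after seeing the data), a replicate block and leaving out each library. Replicates were compared in 66 pairs: 0 were identical, with a chi-square per gene of 1.3 to 34.1. Totals of 1666325 to 6596543 counts limit precision, and intervals and floors cover counting error only where they rest on counts alone.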

Additional observations from a re-analysis of the deposited data

Results flagged for a closer look

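Tests of the difference between effects passed for 26 values, on the log2 scale. From 6 h to 24 h, the HFG effect in AMO1 moved upward by 2.20 for HILPDA, 1.24 for PFKFB4, 1.23 for ADM, 0.95 for BNIP3, 0.76 for ANKRD37 and 0.60 for PFKFB3, and moved the other way for NDRG1 (-0.47) and PDK1 (-0.35). In CFZr L363 it moved upward by 1.61 for HILPDA, 1.51 for PFKFB4, and by 1.02 for ADM and 1.02 for PFKFB3. The change of PFKFB3 in AMO1 did not pass with the set of library numbers as a term (0.51, adjusted p = 0.102, edgeR).

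For 6 members the HFG effect was less negative in CFZr L363 than in AMO1. At 6 h the difference was 2.10 for HILPDA, 1.79 for ANKRD37, 1.47 for NDRG1, 1.06 for PDK1, 0.80 for PFKFB3 and 0.79 for PFKFB4. At 24 h it was 2.15 for NDRG1, 1.75 for ANKRD37, 1.51 for HILPDA, 1.23 for PFKFB3, 1.06 for PFKFB4 and 0.95 for PDK1. For NCP26 at 24 h the difference was 0.97 for NDRG1 and 0.64 for HILPDA. With the set of library numbers as a term and all 66 libraries, PFKFB4 at 6 h did not pass (0.72, adjusted p = 0.0743, edgeR). That term rests on the CFZ and NCP22 groups that were split between sets. The lines also differ in resistance to carfilzomib, in origin and in the sets their libraries fall into, and origin and resistance cannot be told apart here.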

How the results depend on the processing

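HILPDA was unchanged in 195 of 203 refits under other settings and in 218 of 240 with a library left out. Unchanged meant the same direction and the same side of the threshold. For NCP26 against DMSO at 6 h it meant the same direction and a shift within the spread between replicates, without a threshold. Those refits describe the values that chose HILPDA. Members called with all groups in one fit were 2 for NCP22 and 0 for halofuginol in AMO1 at 6 h, 7 for CFZ in AMO1 at 24 h, and in CFZr L363 0 for halofuginol at 6 h, 3 for HFG and 4 for HFG against halofuginol at 24 h, and 4 for the NCP26 effect between lines. With the GC offset they were 1, 1 and 0 for NCP22 and halofuginol in AMO1 and halofuginol in CFZr L363 at 6 h. With DESeq2 they were 1 for halofuginol in AMO1 at 6 h, 1 at 24 h, and 2 in CFZr L363 at 6 h, and without the filter 1 for NCP22 in CFZr L363 at 6 h. With the set of library numbers they were 7 for CFZ at 24 h and 0 for halofuginol in CFZr L363. HILPDA with halofuginol in CFZr L363 at 6 h lost its call with DESeq2 (-0.28), without the filter (-0.26), with all groups (-0.28), the GC offset (-0.18) and the set (-0.21). HILPDA with NCP22 in AMO1 at 24 h turned to -0.14 with the set, and the line difference in DMSO at 24 h passed with all groups (0.25). Over all genes DESeq2 called 270 for halofuginol in AMO1 at 6 h, 63 at 24 h, and 1644 in CFZr L363 at 6 h. For the other settings the share of all genes called is not given, so nothing is read from those counts about the members. The cause was not tested.

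Same-numbered replicates did not pair (0 of 30 comparisons, correlations -0.396 to 0.383). With the replicate block, NCP26 in CFZr L363 at 24 h called 0 members, with HILPDA at -0.76 (adjusted p = 0.0792, edgeR).

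With a library left out, members called ranged from 2 to 4 (AMO1 NCP22 6 h), 0 to 4 (AMO1 halofuginol 6 h), 3 to 8 (CFZ 24 h), 0 to 4 (CFZr L363 halofuginol 6 h), 0 to 6 (NCP26 24 h), 0 to 7 (HFG 24 h), 3 to 6 (NCP26 against HFG 24 h), 2 to 9 (DMSO over time), 3 to 7 (DMSO between lines at 24 h) and 1 to 4 (NCP26 effect between lines). HILPDA ranged from -0.0085 to 0.085 (AMO1 NCP22 24 h), -0.35 to -0.23 (CFZr L363 halofuginol 6 h), -0.83 to -0.67 (NCP26 24 h), -0.33 to -0.18 (HFG 24 h), 0.16 to 0.33 (DMSO between lines at 24 h) and 0.58 to 0.72 (NCP26 effect between lines). Apart from the refits without replicate 2 described above, the share of all genes called is not given beside these counts of members. The same holds for the count with the replicate block, and nothing is read from either about the members. EGLN3 was too low for any test.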
